A study of Mus musculus with 43 samples.

Results

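Skin of iNZM mice after repeated, lower doses of UVB was compared with iNZM skin after a single high dose. UVB is the band of ultraviolet light mainly behind sunburn. The comparison holds 10 of the 43 back-skin libraries of the study, 5 in each group, chosen by the strain and regimen in their labels. Of 23256 genes in the deposited table, 19170 reached a value of 10 in 4 or more of the 43 libraries and were tested. All groups were female mice aged 10 to 13 weeks. The chronic group (chronicUV) received 100 mJ/cm2 daily on 5 days, and the acute group (acuteUV) received 300 mJ/cm2 on 1 occasion. Skin was taken 24 hours after the last exposure, so total dose, number of exposures and time since the first exposure all differ between the groups and cannot be told apart. Unexposed iNZM skin (4 libraries) gave the background, and NZM and WT skin under the same 2 regimens (5 libraries a group) gave the same comparison in other strains. NZM is the lupus-prone line NZM2328. In this field iNZM denotes NZM2328 animals without the type I interferon receptor; the labels define neither it nor the strain behind WT. If that meaning holds, chronic, acute and unexposed iNZM mice all carry the same receptor defect.

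Epidermis renews itself from a basal layer. Its cells leave that layer, switch to the keratins Krt1 and Krt10, and at the surface lay down a cornified envelope of filaggrin, loricrin and late cornified envelope (Lce) proteins, with lipids between the dead cells. UVB damages keratinocyte DNA, and injured keratinocytes release chemokines such as Cxcl1 and Cxcl5, which draw neutrophils, together with cytokines such as Il6 and acute-phase proteins such as Saa3. Type I interferons signal through the receptor chains Ifnar1 and Ifnar2 and switch on a set of antiviral genes.

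Values are read counts divided by the authors' size factor of each library, here called normalised read counts. The labels do not say that libraries of a group came from separate animals, so p-values measure the spread between these samples. Depth ran from 19.52 to 28.55 M reads in the 10 libraries. Ifnar1 was read in every iNZM library: it had 517, 445, 304, 316 and 379 normalised read counts in the chronic libraries 22, 23, 24, 25 and 57, and 449, 405, 544, 579 and 477 in the acute libraries 6, 9, 10, 48 and 49. The lowest value was 764 after chronic and 848 after acute UVB in NZM, and 758 and 852 in WT, so every exposed iNZM library lay below every exposed NZM and WT library; a deletion that leaves part of the transcript would still give reads, and which exons are read was not analysed here. All per-library values below follow this order of libraries.

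Some libraries stood apart. A hair follicle score, the mean over 36 hair shaft and follicle genes of the centred log2 value, exceeded 3 in chronic libraries 22, 24 and 25 (5.26, 7.60 and 8.30) and in acute libraries 6 and 49 (7.03 and 6.63), against 1.37 or less in the other 5. Chronic library 57 had the smallest size factor of the study (0.6735), and 11.48% of its counts came from mitochondrial genes, against 1.04% to 6.73% in the other 9. The basal keratin Krt5, a defining gene of epidermis, was abundant in all 10 libraries (57461 to 139749 in the chronic group and 61341 to 115376 in the acute group).

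Promoter windows of 6 genes from both directions of the comparison are shown because these genes, described below, moved far apart between the regimens. Each runs from 250 bases before to 50 bases from the RefSeq gene start on build GRCm38.p6, 5′ to 3′ on the gene's strand. Capitals mark letters that match, on either strand, TATAAA (the TATA box), TGANTCA (bound by AP-1), GGG and TTCC with any 3 bases between them (bound by NF-kB) or TTGCNNAA (bound by C/EBP). Flg lies at chr3:93273296-93273595 (plus strand), Lce1m at chr3:93019012-93019311 (minus strand) and Lce1h at chr3:92765016-92765315 (minus strand). Cxcl1 lies at chr5:90890995-90891294 (plus strand), Il6 at chr5:30012864-30013163 (plus strand) and Saa3 at chr7:46715627-46715926 (minus strand).
Flg: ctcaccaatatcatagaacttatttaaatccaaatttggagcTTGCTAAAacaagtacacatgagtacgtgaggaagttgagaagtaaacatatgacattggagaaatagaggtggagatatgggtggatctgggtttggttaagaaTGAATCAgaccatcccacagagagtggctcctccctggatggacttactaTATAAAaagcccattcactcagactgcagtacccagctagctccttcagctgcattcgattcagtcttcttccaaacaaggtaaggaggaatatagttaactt
Lce1m: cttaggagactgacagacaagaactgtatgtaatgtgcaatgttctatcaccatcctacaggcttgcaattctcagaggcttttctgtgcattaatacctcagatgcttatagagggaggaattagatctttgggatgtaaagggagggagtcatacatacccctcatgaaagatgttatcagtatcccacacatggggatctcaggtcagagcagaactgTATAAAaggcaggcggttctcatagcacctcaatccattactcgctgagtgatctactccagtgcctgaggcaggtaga
Lce1h: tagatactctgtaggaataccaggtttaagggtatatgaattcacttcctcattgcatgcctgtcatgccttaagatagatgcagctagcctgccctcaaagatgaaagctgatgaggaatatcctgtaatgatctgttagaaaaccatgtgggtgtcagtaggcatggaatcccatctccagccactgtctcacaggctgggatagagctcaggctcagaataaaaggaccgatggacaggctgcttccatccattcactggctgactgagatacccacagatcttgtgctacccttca
Cxcl1: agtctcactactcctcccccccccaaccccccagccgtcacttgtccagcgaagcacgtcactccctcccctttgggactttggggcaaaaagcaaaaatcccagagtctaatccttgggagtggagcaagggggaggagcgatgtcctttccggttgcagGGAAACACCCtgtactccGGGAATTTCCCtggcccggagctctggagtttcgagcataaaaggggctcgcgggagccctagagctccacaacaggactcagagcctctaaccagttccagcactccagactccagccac
Il6: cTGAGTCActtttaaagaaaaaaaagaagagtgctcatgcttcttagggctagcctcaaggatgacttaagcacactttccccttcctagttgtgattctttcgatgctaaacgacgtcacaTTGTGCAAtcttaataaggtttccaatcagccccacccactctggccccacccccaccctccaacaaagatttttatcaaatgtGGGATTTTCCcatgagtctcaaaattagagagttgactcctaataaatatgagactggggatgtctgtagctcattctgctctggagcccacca
Saa3: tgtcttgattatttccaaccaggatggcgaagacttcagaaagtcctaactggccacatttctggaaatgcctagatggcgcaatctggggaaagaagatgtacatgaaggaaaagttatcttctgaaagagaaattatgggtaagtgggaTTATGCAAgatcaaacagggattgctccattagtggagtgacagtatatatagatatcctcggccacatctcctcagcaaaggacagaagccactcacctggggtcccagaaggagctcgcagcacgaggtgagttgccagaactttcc

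In these windows, counted from the first base of the match, Flg held an AP-1 match 103 bases, a C/EBP match 208 bases and a TATA box 53 bases before the start. Il6 held an AP-1 match 249, a C/EBP match 128 and an NF-kB match 44 bases before it. Cxcl1 held NF-kB matches 89, 71 and 70 bases before the start, the last 2 of which overlap. Saa3 held a C/EBP match 99 bases before the start and Lce1m a TATA box 29 bases before it, while the letters searched are not in the Lce1h window. Of all 32851 promoters in the RefSeq table, 13.6% held the TATA letters, 7.81% the AP-1, 5.56% the NF-kB and 10.8% the C/EBP letters. The Lce1 genes were higher after chronic than after acute UVB. Among 13 of their promoters, the AP-1 and C/EBP letters were found in 0, the NF-kB letters in 2 and the TATA letters in 2. Among 17 promoters of the neutrophil chemokine and inflammatory cytokine genes, 8 held the TATA, 6 the AP-1, 5 the NF-kB and 2 the C/EBP letters. A match describes letters and is not a bound site.

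Skin after chronic UVB carried far more transcript of filaggrin, keratin 1 and the Lce1 genes than skin after acute UVB, and far less transcript of several chemokines, acute-phase proteins and neutrophil receptors. Of 19170 genes, 731 (3.81%) were higher and 853 (4.45%) lower after chronic UVB, together 1584 (8.26%), by limma at a Benjamini-Hochberg adjusted p below 0.05 in a fit of all 9 groups. A further measure of separation gave 337 genes (1.76%) with all 5 chronic libraries above all 5 acute ones and 303 (1.58%) with all 5 below. Of the 1584, 501 were among those without overlap, 269 higher and 232 lower. The median log2 difference was -0.001 over all genes and, in size, 1.04 (quartiles 0.62 and 1.99) over the called genes. The fit of all 9 groups shares 1 estimate of the spread, and the exposed iNZM libraries varied more than the unexposed ones, with a median SD over genes of 0.54 after chronic and 0.54 after acute UVB, against 0.24 without UVB on the log2 scale. When only the 10 libraries compared were fitted, 36 genes (0.188%) were called higher and 8 (0.0417%) lower; all 44 were among the 1584. Of the gene lists described below, that fit called 6 late cornified envelope 1 genes, 1 barrier lipid gene and 1 neutrophil marker, and 0 members of every other list. Of the 85 called genes among the 116 chosen for naming, 14 passed in that smaller fit. Without acute library 10, acute library 9 or chronic library 57 the count was 728, 993 or 832. Without the libraries with a hair follicle score above 3 it was 4390, of which 1425 were among the 1584. In that run 2092 genes (10.9%) were higher and 2298 (12.0%) lower. Its list counts given below stand against these shares, not against 3.81% and 4.45%. That run compared only chronic libraries 23 and 57 with acute libraries 9, 10 and 48, so its counts rest on fewer exposed iNZM libraries. A log2 difference here is chronic minus acute on the log2(value + 1) scale, with its SE, unless another reference is named. The words rose, fell, higher and lower likewise compare chronic with acute UVB, not with unexposed skin, unless another reference is named.

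Filaggrin and keratin 1, genes of the differentiated epidermis, were higher after chronic than after acute UVB. Filaggrin (Flg, chromosome 3, 93273523 to 93293686 in build GRCm38), the precursor protein that bundles keratin filaments in the dying surface cell, had 77196, 128102, 29580, 9306 and 318527 normalised read counts in the chronic libraries, against 1504, 2864, 397, 2445 and 1873 in the acute libraries. The lowest chronic library was above the highest acute one, and chronic libraries themselves ranged widely, with 57 highest and 25 lowest. The means were 112000 ± 124000 after chronic and 1820 ± 950 after acute UVB (SD, n = 5 each), a log2 difference of 5.34 ± 0.75 (limma adjusted p = 3.07e-05, and 0.051 with only the 10 libraries fitted). Keratin 1 (Krt1, chromosome 15, 101845426 to 101850794), the keratin that marks the first differentiated layer, had 196532, 292418, 28665, 88161 and 25842 in the chronic libraries, against 247, 12978, 2907, 5828 and 1289 in the acute libraries. Here the groups did not overlap either, but library 57, the highest for Flg, was the lowest chronic library for Krt1. Its log2 difference was 5.13 ± 0.81 (limma adjusted p = 1.22e-04, and 0.0892 with only the 10 libraries).

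**Figure D1:**
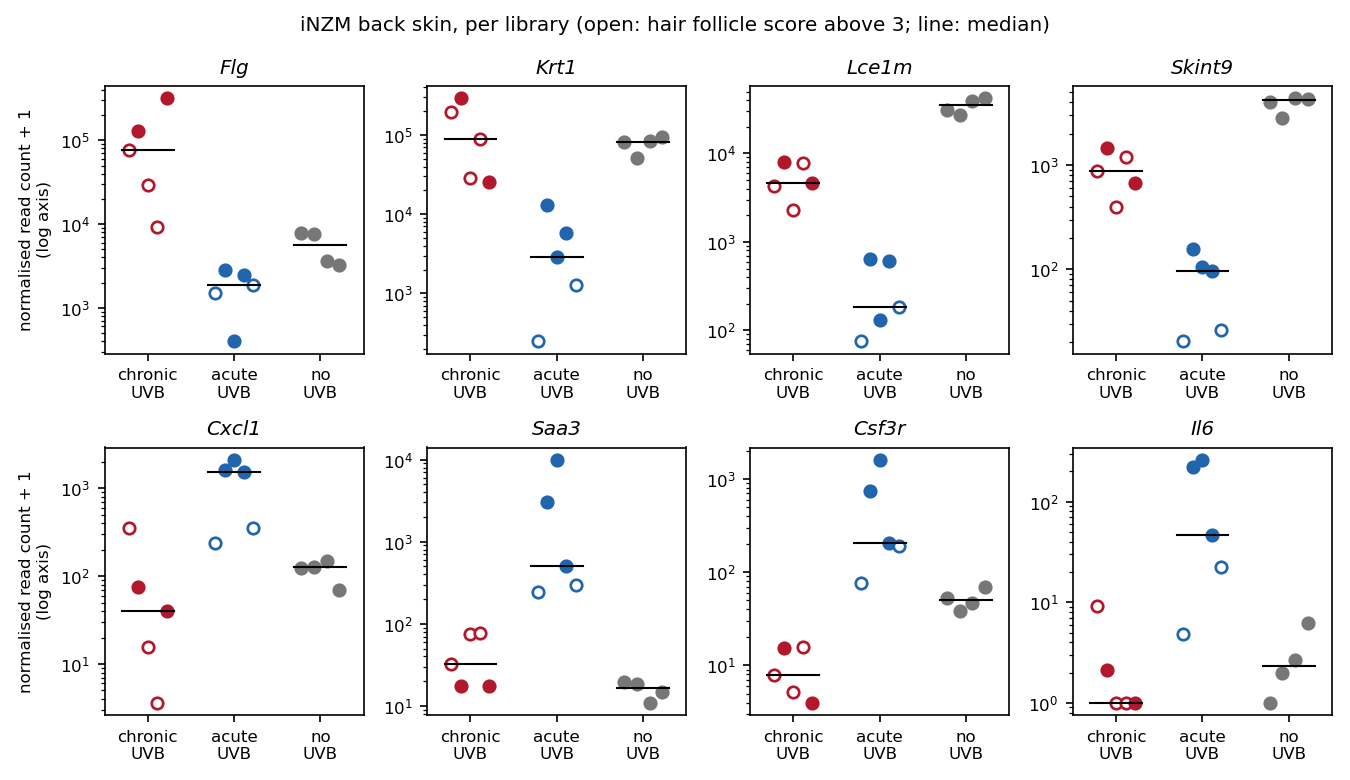
Normalised read count plus 1 (log axis) of 8 genes in each iNZM library after chronic, acute or no UVB; open points are libraries with a hair follicle score above 3, and the line is the median of the group. For Flg, Krt1, Lce1m and Skint9 all 5 chronic libraries lie above all 5 acute ones, for Saa3 and Csf3r all 5 lie below, and for Cxcl1 and Il6 chronic library 22 overlaps the acute group.

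All 14 genes of late cornified envelope group 1, small proteins cross-linked into the envelope, were higher after chronic UVB (14 of 14, against 3.81% of all genes), with a median log2 difference of 3.57 and a range of 2.93 to 4.39. Of the 14, 12 showed no overlap between the groups, against 1.76% of all genes, and 6 were called when only the 10 libraries were fitted. All 14 remained called without acute library 9, acute library 10 or chronic library 57. Lce1m (chromosome 3, 93017810 to 93019060) had 4277, 7994, 2321, 7726 and 4656 in the chronic libraries, against 74.2, 640, 129, 611 and 183 in the acute libraries. Its chronic libraries lay close together, each at least 2321, while acute libraries 6 and 10 were lowest (log2 difference 4.39 ± 0.72, limma adjusted p = 1.70e-04, and 0.0374 with only the 10 libraries). Lce1h (chromosome 3, 92763215 to 92765065) had 2033, 3201, 625, 760 and 1791 in the chronic libraries, against 13.5, 222, 73.9, 86.6 and 67.7 in the acute libraries, again without overlap (4.37 ± 0.66, limma adjusted p = 7.52e-05, and 0.0431). Lce6a, a further envelope gene of the same cluster, had 1160, 1341, 414, 529 and 846 in the chronic libraries, against 23.1, 97.8, 26, 86.6 and 48.5 in the acute libraries (limma adjusted p = 5.05e-05, and 0.0178). The Lce1 genes lie side by side and resemble each other, so the authors' counting could move reads between them, and their 14 values are not independent.

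The wider list of 23 epidermal differentiation genes had 10 higher (43.5%, against 3.81% of all genes) and 0 lower, with a median log2 difference of 1.36 and a range of -0.23 to 5.34. Besides Flg and Krt1 these were Hrnr, Casp14, Krt10, Lor, Flg2, Asprv1, Ivl and Calml3. Of the 23 genes, 7 had all 5 chronic libraries above all 5 acute ones, against 1.76% of all genes. When only the 10 libraries were fitted, 0 of the 23 were called, and 10 were called without acute library 9, acute library 10 or chronic library 57. Casp14, the protease that helps degrade filaggrin, had 13088, 8936, 2301, 5364 and 5615 in the chronic libraries, against 368, 1881, 1065, 480 and 590 in the acute libraries. Every chronic library was higher (3.05 ± 0.46, limma adjusted p = 7.51e-05). Hornerin (Hrnr), a filaggrin-like protein, differed by 3.32 ± 0.56 (limma adjusted p = 2.52e-04). Krt10, the partner of Krt1, had 163129, 257334, 25518, 114800 and 19958 in the chronic libraries, against 1484, 39470, 26327, 16793 and 3055 in the acute libraries. Its groups overlapped, because chronic libraries 24 and 57 lay below acute libraries 9 and 10 (2.98 ± 0.72, limma adjusted p = 7.43e-03; 1.47 with adjusted p = 0.152 without the libraries with a high hair follicle score).

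Other genes were also far higher after chronic than after acute UVB. Akr1d1, which encodes a steroid 5-beta-reductase best known from liver, had 311, 109, 29.1, 40.9 and 35.6 in the chronic libraries, against 1.93 in acute library 6 and no reads in the other 4. It was nearly unread in unexposed skin too, at 0, 0, 3.3 and 2.09. The groups did not overlap (limma adjusted p = 6.87e-06, and 0.0172 with only the 10 libraries), and no fold is given, since 2 reads stand behind the acute group. Serpina12, the serpin called vaspin, had 3371, 2719, 584, 1266 and 891 in the chronic libraries, against 13.5, 146, 53.8, 66.9 and 13.1 in the acute libraries, without overlap (5.14 ± 0.64, limma adjusted p = 4.35e-06, and 0.0374). Otop3, a member of the otopetrin proton channel family, had 359, 361, 85.3, 189 and 255, against 1.93, 34.1, 5.04, 21.6 and 10.1 (chronic, then acute libraries; 4.35 ± 0.55, limma adjusted p = 5.46e-06, and 0.0431). Skint9, of the Skint family named for a member that selects epidermal gamma-delta T cells in mice, had 882, 1465, 398, 1184 and 674 in the chronic libraries, against 19.3, 155, 103, 94.5 and 25.3 in the acute libraries. All chronic libraries were higher (3.79 ± 0.51, limma adjusted p = 1.87e-05, and 0.0431). The clone-named models RP24-351I18.1 and RP23-381I16.4, for which the files give no gene name, differed by 5.84 ± 0.66 and 4.16 ± 0.61 (limma adjusted p = 9.02e-07 and 6.16e-05).

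Genes that make the skin's lipids gave fewer calls. Of 18 barrier lipid genes, 3 were higher and 0 lower (16.7% against 3.81%), with a median log2 difference of 0.79; 8 were higher without the libraries with a high hair follicle score, and 5 without chronic library 24 or 25. Smpd1, the acid sphingomyelinase that releases ceramide, had 4096, 3994, 3166, 3846 and 4794 in the chronic libraries, against 2384, 2370, 2144, 1730 and 1963 in the acute libraries. These were tight, separate groups (0.91 ± 0.22, limma adjusted p = 7.37e-03, and 0.0431 with only the 10 libraries). The epidermal lipoxygenase genes Alox12e and Aloxe3 differed by 1.80 ± 0.44 and 1.69 ± 0.39 (limma adjusted p = 8.27e-03 and 5.40e-03), with overlap between the groups. In unexposed skin Alox12e had 44980, 27845, 42870 and 36370, against 6616 or less in the chronic libraries. Of 24 cholesterol synthesis and uptake genes, 4 were called higher (16.7%, against 3.81% of all genes) and 0 lower, with a median of 0.78. That count turned on single libraries: 1 was called without acute library 10 or chronic library 22, 23 or 57, 12 without chronic library 24 and 17 without chronic library 25, and 0 when only the 10 libraries were fitted. When libraries with a high hair follicle score were left out, or when that score was a covariate, 17 were higher. The leading member was Insig1, which restrains sterol synthesis and is itself a sterol-sensitive target. It had 5789, 4970, 4499, 4666 and 12215 in the chronic libraries, against 2772, 2157, 1961, 2221 and 2532 in the acute libraries; library 57 stood far above the other 4, which were still above the acute group (1.36 ± 0.32, limma adjusted p = 6.31e-03).

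Messages of several chemokines and inflammatory cytokines were lower after chronic than after acute UVB. Of 22 neutrophil chemokine and inflammatory cytokine genes tested, 12 were lower after chronic UVB (54.5%, against 4.45% of all genes) and 0 higher, with a median log2 difference of -2.69. Those called were Cxcl5, Il6, Csf3, Cxcl3, Cxcl1, Ccl7, Il1b, Cxcl2, Osm, Ppbp, Ccl12 and Lif; 0 were called when only the 10 libraries were fitted, and 15 without the libraries with a high hair follicle score. Without acute library 9, acute library 10 or chronic library 57 the count was 8, 7 or 9. Cxcl5 (chromosome 5, 90759360 to 90761624), a ligand of the neutrophil receptor Cxcr2, had 29, 7.77, 1.04, 3.48 and 0 in the chronic libraries, against 85.8, 2607, 5727, 348 and 307 in the acute libraries. The groups did not overlap, and acute libraries 9 and 10 were by far the highest (-7.15 ± 1.12, limma adjusted p = 1.08e-04, and 0.0543 with only the 10 libraries). Cxcl1, a second Cxcr2 ligand whose promoter is shown above, had 351, 73.3, 14.6, 2.61 and 38.6 in the chronic libraries, against 236, 1631, 2120, 1523 and 357 in the acute libraries. Chronic library 22 exceeded acute library 6, so the groups overlapped (-4.57 ± 0.71, limma adjusted p = 8.85e-05, and 0.143). Il6 had 8.13, 1.11, 0, 0 and 0 in the chronic libraries, against 3.85, 218, 260, 45.3 and 21.2 in the acute libraries, with the same crossing of libraries 22 and 6 (-4.76 ± 0.80, limma adjusted p = 1.97e-04, and 0.128).

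Csf3, which encodes the granulocyte growth factor G-CSF, had 8.13, 0, 1.04, 0 and 0 in the chronic libraries, against 3.85, 280, 213, 42.3 and 15.2 in the acute libraries, and chronic library 22 again lay above acute library 6. Its log2 difference was -4.68 ± 0.88 (limma adjusted p = 7.81e-04). Ccl7, which attracts monocytes, had 62.7, 35.5, 6.24, 61 and 13.4 in the chronic libraries, against 117, 1816, 1929, 254 and 159 in the acute libraries, without overlap (-4.02 ± 0.77, limma adjusted p = 1.02e-03). Il1b, the inflammasome-processed cytokine, differed by -4.01 ± 0.86 (limma adjusted p = 2.69e-03). Across this list acute libraries 9 and 10 were highest and acute library 6 lowest: its summed level was 825, 10600, 16900, 3700 and 1650 in acute libraries 6, 9, 10, 48 and 49, against 1260, 1180, 288, 848 and 659 in the chronic libraries, in their order. Acute libraries 6 and 49, the 2 lowest, were also the acute libraries with a high hair follicle score; the part of hair growth in this spread was not tested.

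Several neutrophil marker genes were lower too. Of 17 tested, 9 were lower (52.9%, against 4.45%) and 0 higher, with a median log2 difference of -2.95, and 3 of the 9 (S100a8, S100a9 and Mmp9) also belong to other lists described here. Without acute library 9, acute library 10 or chronic library 57 the count was 6, 6 or 8. In bulk skin, fewer neutrophils and less RNA per neutrophil cannot be told apart. Csf3r (chromosome 4, 126024550 to 126044440), the receptor for G-CSF, had 6.97, 14.4, 4.16, 14.8 and 2.97 in the chronic libraries, against 75.2, 743, 1605, 202 and 189 in the acute libraries. The highest chronic library stood well below the lowest acute one (-5.28 ± 0.81, limma adjusted p = 8.19e-05). Csf3r was the 1 member still called lower when only the 10 libraries were fitted (adjusted p = 0.0431). Fpr2, a formyl peptide receptor, had no reads in the 5 chronic libraries, against 4.82, 63.7, 166, 7.87 and 6.06 in the acute libraries. Against a floor of 3 reads over the chronic group, a normalised read count of 0.66, its mean after chronic UVB was at least 75.1-fold lower; the floor covers counting error only. The summed level of the markers ran from 787 to 7190 in the chronic and from 1720 to 44100 in the acute libraries.

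Monocyte, macrophage and vessel genes gave fewer calls. Of 26 monocyte and macrophage markers, 1 was higher and 4 lower (3.85% and 15.4%, against 3.81% and 4.45% of all genes), with a median of -1.64. The count lower was 2 without acute library 10, 13 without acute library 6 and 0 when only the 10 libraries were fitted; edgeR, DESeq2 and limma without the libraries with a high hair follicle score called 12, 16 and 13 lower. F10, a coagulation factor expressed by monocytes, had 3.48, 2.22, 0, 6.1 and 5.94 in the chronic libraries, against 10.6, 184, 370, 40.3 and 21.2 in the acute libraries, without overlap (-3.99 ± 0.79, limma adjusted p = 1.24e-03). Lyve1, of lymphatic vessels and dermal macrophages, had 56.9, 54.4, 6.24, 73.2 and 44.5 in the chronic libraries, against 106, 892, 1851, 337 and 315 in the acute libraries (-3.58 ± 0.80, limma adjusted p = 3.73e-03). Itgam, the CD11b integrin chain, differed by -2.46 ± 0.60 (limma adjusted p = 8.22e-03, and -1.98 with adjusted p = 0.0535 without acute library 10). The chemokine receptor gene Ccr2 fell too (-2.44 ± 0.75, limma adjusted p = 0.0357), a call lost without acute library 9 or 10 or chronic library 22, 24 or 57 (adjusted p = 0.0524 to 0.194). Arg1, an arginase of some macrophages that keratinocytes also make, was the member called higher. It had 1093, 1381, 934, 1769 and 1710 in the chronic libraries, against 385, 648, 244, 789 and 333 in the acute libraries (1.61 ± 0.28, limma adjusted p = 4.41e-04). Unexposed skin had 1820, 2016, 2688 and 2432, above every chronic library. Of 16 endothelial genes, Sele and Icam1, adhesion molecules of inflamed vessels, were lower (-2.65 and -1.52; 12.5% of the list, against 4.45% of all genes), as were Hdc and Fcer1a of 11 mast cell genes (-3.67 and -3.25; 18.2%). Without acute library 6 the 2 counts were 8 and 4, and without chronic library 23 they were 6 and 4. The calls for Sele and Fcer1a were lost without acute library 9 or 10 or chronic library 24 or 57 (limma adjusted p = 0.0509 to 0.0921). Ccr2 and these 4 genes were chosen after their values were seen.

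Some stress genes of the epidermis itself were lower as well. Of 30 stress keratinocyte and alarmin genes, 11 were lower (36.7%, against 4.45%) and 1, Serpinb3a, was higher (2.85 ± 0.88, limma adjusted p = 0.0379), with a median of -1.82. The count lower was 9 without acute library 9 or 10, 10 without chronic library 57 and 17 without acute library 6. It was 22 without the libraries with a high hair follicle score and 0 when only the 10 libraries were fitted. The Serpinb3a call was lost without acute library 6, 10 or 49 or chronic library 22 or 23 (adjusted p = 0.0561 to 0.128). Saa3 (chromosome 7, 46711998 to 46715700), an acute-phase protein made locally in inflamed tissue, had 31.4, 16.6, 73.9, 75.8 and 16.3 in the chronic libraries, against 245, 3059, 9967, 507 and 297 in the acute libraries. The groups did not overlap (-4.85 ± 0.87, limma adjusted p = 5.11e-04, and 0.0913 with only the 10 libraries). Il24, a cytokine of the interleukin-20 family, had 38.3, 0, 0, 2.61 and 0 in the chronic libraries, against 10.6, 377, 328, 172 and 151 in the acute libraries, and library 22 overlapped acute library 6 (-5.60 ± 0.89, limma adjusted p = 1.22e-04). S100a8, a calprotectin subunit found in neutrophils and stressed keratinocytes, had 2602, 2147, 89.5, 108 and 273, against 451, 14644, 9133, 5041 and 1366 (chronic, then acute libraries). Its difference of -2.95 ± 0.77 (limma adjusted p = 1.32e-02) missed the threshold without acute library 9 (-2.42, adjusted p = 0.0618) or 10 (-2.59, adjusted p = 0.0605). The wound keratin Krt6b did not pass the test (-2.47 ± 0.90, limma adjusted p = 0.080): it had 7918, 6034, 182, 266 and 460 in the chronic libraries, against 440, 27742, 15874, 6897 and 4186 in the acute libraries.

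The Lce3 group, envelope genes known to be induced in injured epidermis, gave calls in the other direction than the Lce1 group. Of 6 genes, 3 were lower (50.0%, against 4.45% of all genes) and 0 higher, with a median log2 difference of -2.40; 5 were lower without acute library 6, and 0 when only the 10 libraries were fitted. Lce3d (chromosome 3, 92957390 to 92958505) had 249, 114, 33.3, 94.9 and 22.3 in the chronic libraries, against 128, 1421, 1060, 830 and 213 in the acute libraries. Only chronic library 22 reached the acute range (-2.79 ± 0.63, limma adjusted p = 4.57e-03). Lce3b differed by -4.30 ± 1.00 (limma adjusted p = 5.65e-03) and Lce3a by -2.71 ± 0.80 (adjusted p = 0.0292), of which Lce3a missed the threshold when acute library 9, 10 or 48 or chronic library 23, 24 or 57 was left out (adjusted p = 0.058 to 0.112).

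Among proteases and their regulators, 12 of 21 tissue remodelling genes were lower (57.1%, against 4.45%) and 0 higher, with a median of -1.59; 9, 7 or 9 were lower without acute library 9, acute library 10 or chronic library 57, and 0 when only the 10 libraries were fitted. Timp1, an inhibitor of matrix metalloproteinases, had 56.9, 35.5, 31.2, 33.1 and 5.94 in the chronic libraries, against 148, 1145, 2207, 204 and 312 in the acute libraries (-4.10 ± 0.75, limma adjusted p = 6.03e-04). Adamts4, a protease that cleaves the proteoglycan aggrecan, had 52.3, 12.2, 36.4, 32.2 and 2.97 in the chronic libraries, against 106, 1073, 793, 160 and 200 in the acute libraries (-3.94 ± 0.71, limma adjusted p = 5.53e-04). Both were without overlap, and so was Plaur, the urokinase receptor (-2.59 ± 0.56, limma adjusted p = 2.99e-03). Haptoglobin (Hp), which binds free haemoglobin, had 556, 1663, 420, 1751 and 86.1 in the chronic libraries, against 2869, 16803, 44198, 3462 and 4214 in the acute libraries (-3.80 ± 0.73, limma adjusted p = 9.40e-04).

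Some AP-1 and immediate-early genes, which encode transcription factors and other early responders to stimulation, fell too. Of 18 AP-1 and immediate-early genes 6 were lower (33.3%, against 4.45%) and 0 higher, with a median of -0.59; 3 were lower without acute library 9 or chronic library 23 or 57, 4 without acute library 10, and 0 when only the 10 libraries were fitted. Fosl1, an AP-1 subunit, had 299, 49.9, 115, 118 and 17.8 in the chronic libraries, against 175, 1721, 1160, 703 and 352 in the acute libraries, and chronic library 22 overlapped acute library 6 (-2.89 ± 0.50, limma adjusted p = 3.45e-04). Myc differed by -0.76 ± 0.15 (limma adjusted p = 1.23e-03) with no overlap between the groups. Outside this list, Socs3, the feedback inhibitor of Il6-type signalling, had 706, 486, 410, 509 and 535 in the chronic libraries, against 970, 9379, 5419, 3183 and 1881 in the acute libraries. Its chronic values were close together and all lower (-2.58 ± 0.39, limma adjusted p = 8.19e-05, and 0.0866 with only the 10 libraries). Bcl3, an NF-kB cofactor, differed by -2.79 ± 0.46 (limma adjusted p = 1.63e-04), and Rtn4rl2, a Nogo receptor homologue, by -3.25 ± 0.75 (limma adjusted p = 5.34e-03).

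DNA damage and antioxidant genes gave few calls in either direction. Of 28 p53 targets 2 were higher and 3 lower (7.14% and 10.7%, against 3.81% and 4.45% of all genes), with a median of -0.12. Tnfrsf10b, a death receptor, had 238, 242, 224, 174 and 120 in the chronic libraries, against 271, 645, 867, 584 and 280 in the acute libraries (lower, limma adjusted p = 1.48e-03), and Plk3, a stress kinase, rose by 0.94 (limma adjusted p = 9.80e-03). The kinase gene Plk2 (1240 ± 500 after chronic and 2320 ± 835 after acute UVB, limma adjusted p = 9.34e-03) and the BH3-only gene Pmaip1 (303 ± 66.7 and 649 ± 285, limma adjusted p = 8.27e-03) were lower as well (SD, n = 5 each), but neither passed without acute library 10 (adjusted p = 0.0545 and 0.0508), nor Plk2 without chronic library 57 (adjusted p = 0.062). The other member called higher, Trp53inp1, which was chosen after its values were seen, differed by 0.62 (limma adjusted p = 0.0312) and lost its call without acute library 9, 10 or 48 or chronic library 23 or 57 (adjusted p = 0.0577 to 0.108). Cdkn1a, the p53-driven cell cycle inhibitor p21, averaged 6080 ± 1470 after chronic and 7170 ± 2450 after acute UVB (SD, n = 5 each), a difference of -0.20 ± 0.22 (limma adjusted p = 0.613). Of 22 NRF2 antioxidant genes 2 were higher and 2 lower (9.09% each way, against 3.81% and 4.45%), with a median of 0.07; leaving out 1 library gave 1 higher (chronic 22, 23 or 57) to 5 higher (chronic 24). The quinone reductase gene Nqo1 and the aldo-keto reductase gene Akr1b8 were lower (-1.24 ± 0.25 and -1.64 ± 0.32, limma adjusted p = 1.34e-03 and 1.23e-03), while the glutathione transferase gene Gsta2 was higher (1.88 ± 0.41, limma adjusted p = 2.94e-03). Gsta2 had 167, 272, 77, 138 and 140 in the chronic libraries, against 285, 266, 413 and 391 in unexposed skin. Of 28 proliferation genes limma, edgeR and DESeq2 each called 0, with a median of -0.09; 3 had an unadjusted limma p below 0.05, all lower, and 7 were called lower without the libraries with a high hair follicle score. Mki67 had 5224, 2626, 6815, 4470 and 1981 in the chronic libraries, against 9478, 1834, 1323, 2788 and 11220 in the acute libraries, where the 2 highest were the libraries with a high hair follicle score. Of 13 basal keratinocyte genes 4 were lower (30.8%, against 4.45% of all genes) and 0 higher, with a median of -0.29. Their differences ran from -1.04 to 0.19, with 8 negative and 5 positive. Among the 4 were the integrin genes Itga3, Itgb4 and Itga6, which fell by 1.04, 0.96 and 0.81 on the log2 scale. Itga6 missed the threshold without acute library 9 or 10 or chronic library 24 or 57 (adjusted p = 0.0511 to 0.081).

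Interferon genes gave few calls. Of 40 type I interferon-stimulated genes 2 were higher (Mx1 and Rsad2) and 2 lower (Ifitm3 and Zbp1), 5.0% each way against 3.81% and 4.45% of all genes, with a median of -0.19. Mx1, an antiviral GTPase, had 37.2, 37.7, 20.8, 9.58 and 146 in the chronic libraries, against 4.82, 3.3, 8.4, 4.92 and 4.04 in the acute libraries. The groups did not overlap, but counts were low and library 57 was highest (2.56 ± 0.76, limma adjusted p = 0.0294). The call for Mx1 was lost without acute library 9 (adjusted p = 0.0698) or chronic library 22, 23 or 57 (adjusted p = 0.0546, 0.0536 and 0.128). Mx1 also lost its call when 8 rather than 1 was added to each value. Rsad2, the antiviral protein viperin, had 23.2, 78.8, 33.3, 33.1 and 25.2 in the chronic libraries, against 6.75, 18.7, 25.2, 2.95 and 6.06 in the acute libraries (1.81 ± 0.52, limma adjusted p = 0.0244). Its call was lost without acute library 48 or chronic library 23 (limma adjusted p = 0.0786 and 0.0791). It was also lost without the libraries with a high hair follicle score (limma adjusted p = 0.0641). With edgeR, with sample quality weights or with 8 added to each value Rsad2 was not called either. Ifitm3, which blocks virus entry, had 1241, 1441, 449, 692 and 751 in the chronic libraries, against 1073, 4001, 4319, 2674 and 1509 in the acute libraries (lower, limma adjusted p = 3.29e-03). Zbp1, a nucleic acid sensor, had 2.32, 7.77, 3.12, 7.84 and 0 in the chronic libraries, against 7.71, 40.7, 108, 24.6 and 5.05 in the acute libraries (lower, limma adjusted p = 0.0246). That call was lost without chronic library 22 or 57 or acute library 9 (adjusted p = 0.0505, 0.112 and 0.0723), and without acute library 10, where the difference was -1.93. Zbp1 also lost it with 8 added to each value.

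Of the 6 interferon receptor chain genes 1 was called, lower (16.7%, against 4.45% of all genes). Ifnar2 had 153, 201, 107, 169 and 105 in the chronic libraries, against 225, 467, 619, 293 and 206 in the acute libraries, without overlap (-1.21 ± 0.29, limma adjusted p = 6.36e-03, and 0.182 with only the 10 libraries). Ifnar1, with the values given above, did not pass the test (-0.34 ± 0.13, limma adjusted p = 0.109). Of 31 genes on the list of interferon gamma targets and MHC class I, 1 was lower (3.23%, below the 4.45% of all genes). It was the proteasome subunit gene Psmb10 (-0.78 ± 0.25, limma adjusted p = 0.0449). That call was lost without acute library 9, 10 or 48 or chronic library 22, 24, 25 or 57 (adjusted p = 0.0633 to 0.184).

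Markers of resident immune cells and of other skin structures are given by their counts. Of 21 T cell, 9 gamma-delta T cell and 10 MHC class II genes tested limma called 0 each, with medians of -0.11, -0.07 and -0.83; 2 T cell genes, both higher, had an unadjusted p below 0.05, and 0 genes of the other lists. edgeR called 0 in each, and DESeq2 called 4 MHC class II genes lower and 0 of the others. Without the libraries with a high hair follicle score 7 MHC class II genes and 1 gamma-delta T cell gene were called lower. Of the T cell genes that run called 1 higher and 2 lower. Over all genes it called 10.9% higher and 12.0% lower. With the score as a covariate 4 T cell genes were higher, against 1510 of all 19170 genes tested. Without acute library 6, 4 MHC class II genes were lower. Leaving out chronic library 25 or acute library 10 gave 1 T cell gene higher, and leaving out chronic library 24 gave 1 lower. Cd3g, the gene of a CD3 subunit of the T cell receptor complex, had 82.5, 73.3, 58.3, 88 and 98 in the chronic libraries, against 17.3, 196, 103, 131 and 30.3 in the acute libraries. Both exposed groups stood below unexposed skin, at 622, 765, 699 and 610. Of 20 Langerhans and dendritic cell genes 2 were lower (10.0%, against 4.45% of all genes), 7 without the libraries with a high hair follicle score and 5 without acute library 6. They were the homing receptor gene Ccr7 (-2.76 ± 0.65, limma adjusted p = 5.99e-03) and Fscn1, an actin-bundling protein of mature dendritic cells (-1.55 ± 0.44, adjusted p = 0.0228). The Fscn1 call was lost without acute library 9 or 10 or chronic library 23 or 57 (adjusted p = 0.0616 to 0.135). Neither edgeR nor DESeq2 called Fscn1. Of 22 collagen and fibroblast genes the growth factor receptor gene Pdgfra and the surface marker gene Thy1 were lower (-2.16 and -1.46; 9.09% of the list); both calls were lost without acute library 9 or 10 or chronic library 57 (adjusted p = 0.0539 to 0.162), and that for Pdgfra also without chronic library 22 (adjusted p = 0.0717). Of 36 hair, 12 melanocyte, 16 adipocyte and 19 skeletal muscle genes limma, edgeR and DESeq2 each called 0, and 1, 1, 0 and 1 had an unadjusted limma p below 0.05. The hair genes had a median difference of 3.25. The summed hair gene level ran from 1970 to 1810000 in the chronic and from 1560 to 541000 in the acute libraries, so the spread within each group exceeded the difference between them.

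**Figure D2:**
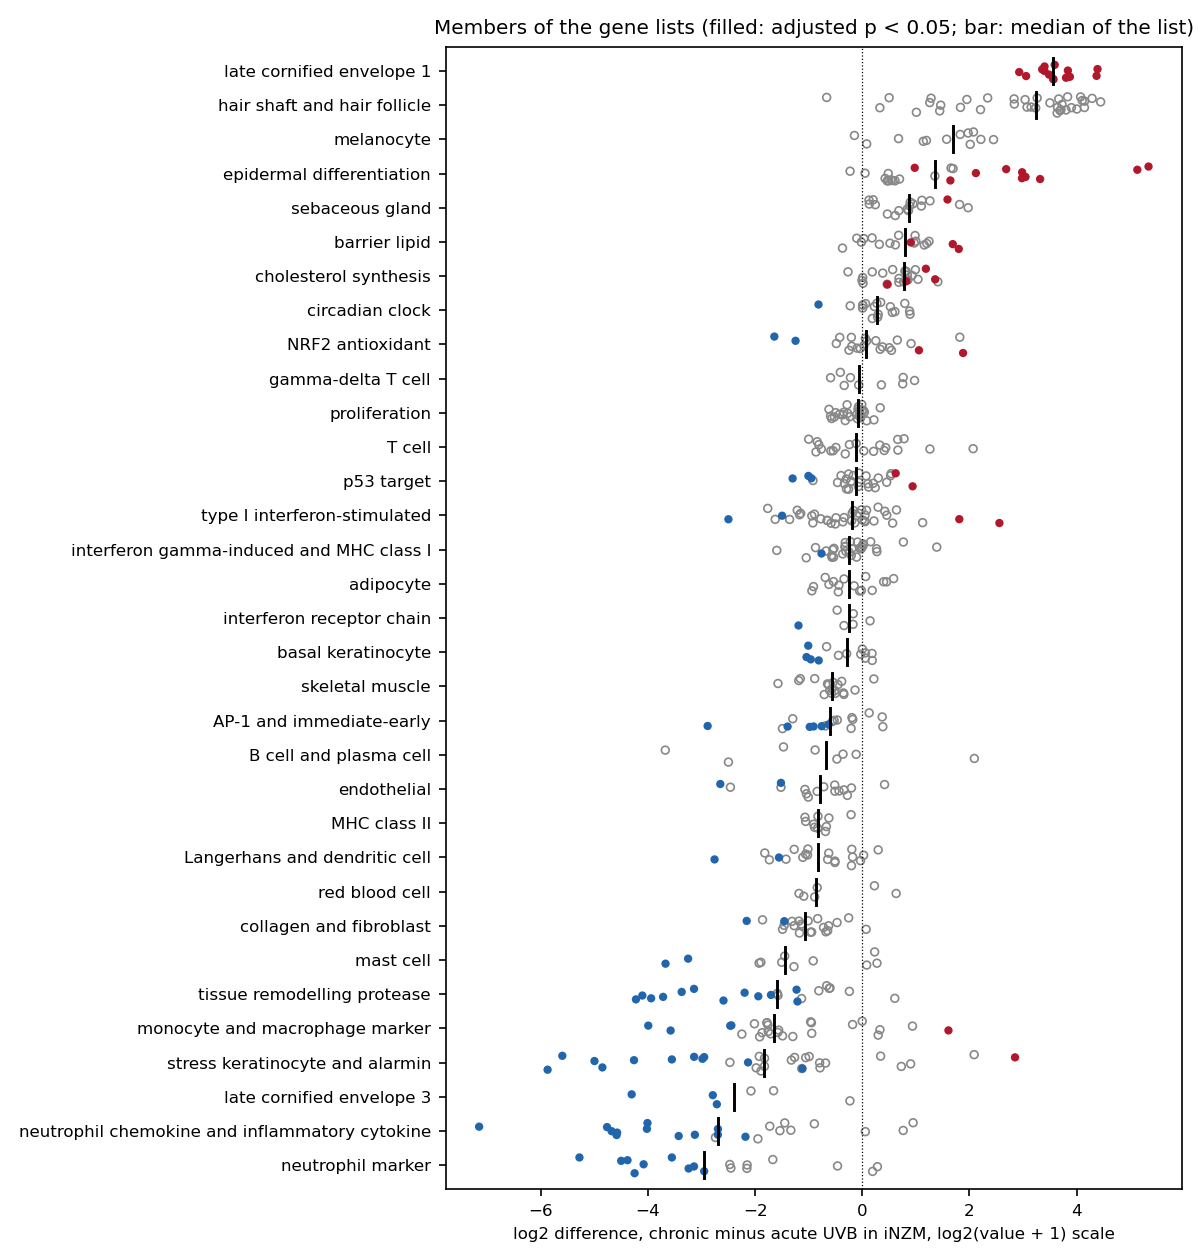
Each point is 1 tested gene of a list, placed by its log2 difference between chronic and acute UVB in iNZM skin; filled points passed limma's adjusted p of 0.05 (red higher, blue lower after chronic UVB), and the bar is the median of the list. The late cornified envelope 1 list sits at a median of 3.57 with 14 of 14 called higher, and the neutrophil marker list at -2.95 with 9 of 17 called lower.

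Unexposed iNZM skin shows where each regimen stood; the comparisons with it share its 4 libraries, so they are given side by side. Krt1 differed from unexposed skin by 0.12 ± 0.86 after chronic and -5.01 after acute UVB (limma adjusted p = 0.932 and 5.08e-05). Lce1h differed by 0.80 ± 0.70 after chronic and by -3.57 after acute UVB (adjusted p = 0.394 and 2.39e-04). Over the 14 Lce1 genes the median was -0.23 after chronic and -3.86 after acute UVB. For Flg the difference was 3.57 ± 0.79 after chronic UVB, where it passed the test, and -1.77 after acute UVB, where it did not (adjusted p = 1.52e-03 and 0.0948). Lce1m and Skint9 stood below unexposed skin under both regimens, by -2.81 and -2.20 after chronic and by -7.20 and -5.99 after acute UVB (adjusted p = 7.65e-03, 3.85e-03, 2.81e-08 and 2.94e-09).

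Among the genes lower after chronic UVB, Saa3 differed from unexposed skin by 1.20 ± 0.92 after chronic and 6.05 after acute UVB (limma adjusted p = 0.332 and 1.01e-05). Timp1 differed by -0.54 after chronic and 3.57 after acute UVB (adjusted p = 0.638 and 1.10e-03). For Csf3r the 2 regimens lay on opposite sides of unexposed skin, at -2.60 ± 0.86 after chronic and 2.67 after acute UVB (adjusted p = 0.0225 and 0.0195). F10 and Lyve1 were lower than in unexposed skin after chronic UVB (-4.60 and -3.58, adjusted p = 2.10e-04 and 2.64e-03), against -0.61 and 0.00 after acute UVB (adjusted p = 0.62 and 1.0). For the chemokine and cytokine list the median difference was -1.59 after chronic and 1.46 after acute UVB, and for the neutrophil markers -0.26 and 2.95. The MHC class II genes had medians of -3.06 after chronic and -2.31 after acute UVB.

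**Figure D3:**
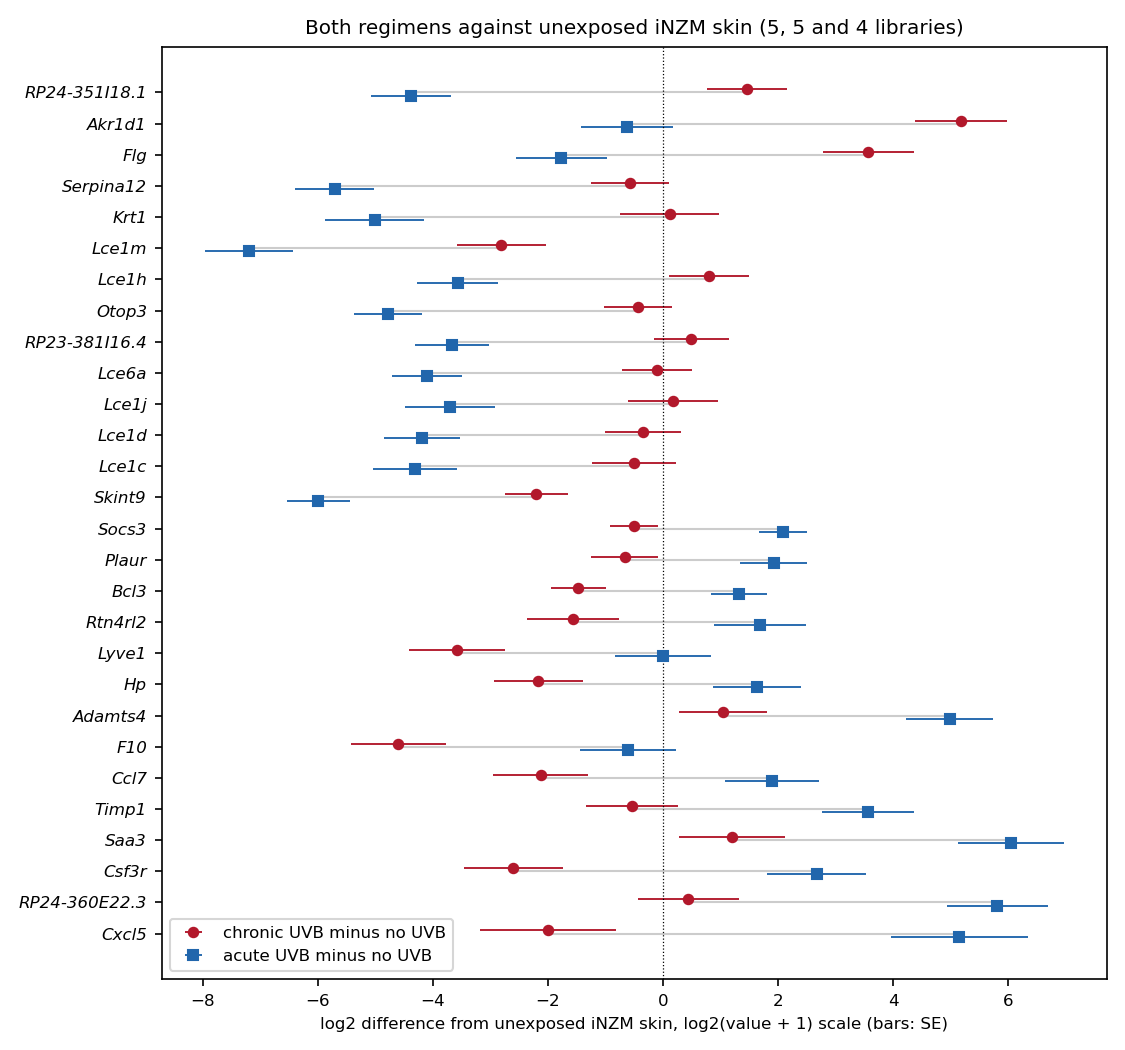
Log2 difference from unexposed iNZM skin (4 libraries) after chronic (circles) and acute UVB (squares), 5 libraries each, for the 14 genes highest and the 14 lowest after chronic relative to acute UVB among those called without overlap; bars are SE. Krt1 lies at 0.12 after chronic and -5.01 after acute UVB, and Csf3r at -2.60 and 2.67.

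The same comparison was made in NZM and WT skin to ask whether the strains differed in it. Against NZM no gene passed the test of the difference between the strains: limma, edgeR and DESeq2 each called 0 of 19170 genes (0.0%). An unadjusted limma p below 0.05 was found for 342 genes (1.78%), a smaller share than the 0.05 that such a threshold lets through if no gene differs. A count of 0 does not show that the 2 strains respond alike. Values for single genes ran side by side: Flg differed by 5.34 ± 0.75 in iNZM and 3.96 in NZM, Krt1 by 5.13 ± 0.81 and 3.34, Cxcl1 by -4.57 ± 0.71 and -4.97, and Il6 by -4.76 ± 0.80 and -4.67. Csf3r differed by -5.28 ± 0.81 in iNZM, -1.02 in NZM and -1.97 in WT. In NZM it had a median of 157 after chronic (40.3 to 460) and 476 after acute UVB (30.4 to 1690), with overlapping groups. The median over the Lce1 genes was 3.57 in iNZM and 2.78 in NZM, and over the neutrophil markers -2.95 and -1.77.

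Against WT, 1132 genes (5.91%) differed in their chronic minus acute difference, 380 (1.98%) with a more positive value in iNZM and 752 (3.92%) with a more negative one. The count was 275 when only the 4 groups compared were fitted, 684 without WT acute library 50, 3078 without libraries with a high hair follicle score and 4180 with that score as a covariate. The exposed libraries of the strains differed in hair follicle score. The highest score in exposed WT skin was 2.4, in acute library 15. In iNZM, chronic libraries 22, 24 and 25 scored 5.26, 7.6 and 8.3, and acute libraries 6 and 49 scored 7.03 and 6.63. Of 28 proliferation genes 11 were more negative in iNZM (against 3.92% of all genes) and 0 were more positive. The part of hair growth in the result for this list was not tested. Mki67, a marker of cycling cells, differed by 0.04 ± 0.48 in iNZM and 2.33 in WT (difference -2.29, limma adjusted p = 0.0389). Its median was 4080 after chronic (2870 to 6210) and 775 after acute UVB (376 to 1600) in WT, without overlap. The iNZM groups overlapped as given above, and the highest iNZM values were 9478 and 11220 in acute libraries 6 and 49. Rrm2, a subunit of ribonucleotide reductase, differed by -0.57 ± 0.26 in iNZM and 0.93 in WT (difference -1.51, limma adjusted p = 9.48e-03).

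Envelope and stress genes also differed from WT. Of 23 differentiation genes 8 were more negative in iNZM, and of 30 stress and alarmin genes 7, against 3.92% of all genes; 0 of either list were more positive. Repetin (Rptn), a filaggrin-like envelope protein, differed by 1.66 ± 0.79 in iNZM and 8.53 in WT (difference -6.87, limma adjusted p = 1.94e-04). It had 11983, 7678, 796, 1465 and 2276 in the chronic and 139, 4920, 2075, 959 and 571 in the acute iNZM libraries; in WT its median was 13000 after chronic (5360 to 26600) and 39.7 after acute UVB (9.35 to 52). The chronic ranges of the strains overlapped, and the acute WT libraries all lay below the acute iNZM ones. Sprr2a3, a small proline-rich envelope protein, gave the most negative value among the genes named (-8.92, limma adjusted p = 4.98e-05), with 0.87 ± 0.92 in iNZM and 9.79 in WT. Krt6b differed by -2.47 ± 0.90 in iNZM and 3.76 in WT (difference -6.23, adjusted p = 2.55e-03), and Gsdmc, a pore-forming gasdermin, by 0.02 ± 0.92 and 6.91 (difference -6.88, adjusted p = 1.27e-03). Casp14 rose in both strains, by 3.05 ± 0.46 in iNZM and 5.34 in WT (difference -2.30, adjusted p = 0.0267). Sprr, Lce and Krt6 genes belong to families with similar copies, so their values are uncertain where reads could match several.

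Of the genes with a more positive value in iNZM, Rrad, a small GTPase, fell in both strains, with differences of -2.46 in iNZM and -6.77 in WT (iNZM minus WT 4.30, limma adjusted p = 3.60e-03). It had 48.8, 57.7, 20.8, 40.1 and 66.8 in the chronic iNZM libraries, against 82.9, 222, 2568, 230 and 80.8 in the acute ones, of which library 10 was highest; without it the iNZM difference was -1.62 (adjusted p = 0.0938). In WT its median was 42.7 after chronic (25.7 to 69.9) and 3910 after acute UVB (2920 to 9180). Skint9 had no reads in any of the 10 exposed WT libraries, so its difference of 3.79 (adjusted p = 1.50e-03) compares a response in iNZM with a gene that was not read in WT. Serpina3b, a protease inhibitor, differed by 3.49 ± 0.72 in iNZM and 0.07 in WT (difference 3.42, adjusted p = 0.0368), and the keratin genes Krt90 and Krt24 by -0.88 and 0.50 in iNZM, against -4.64 and -3.18 in WT (differences 3.76 and 3.68, adjusted p = 0.0496 and 0.0124).

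**Figure D4:**
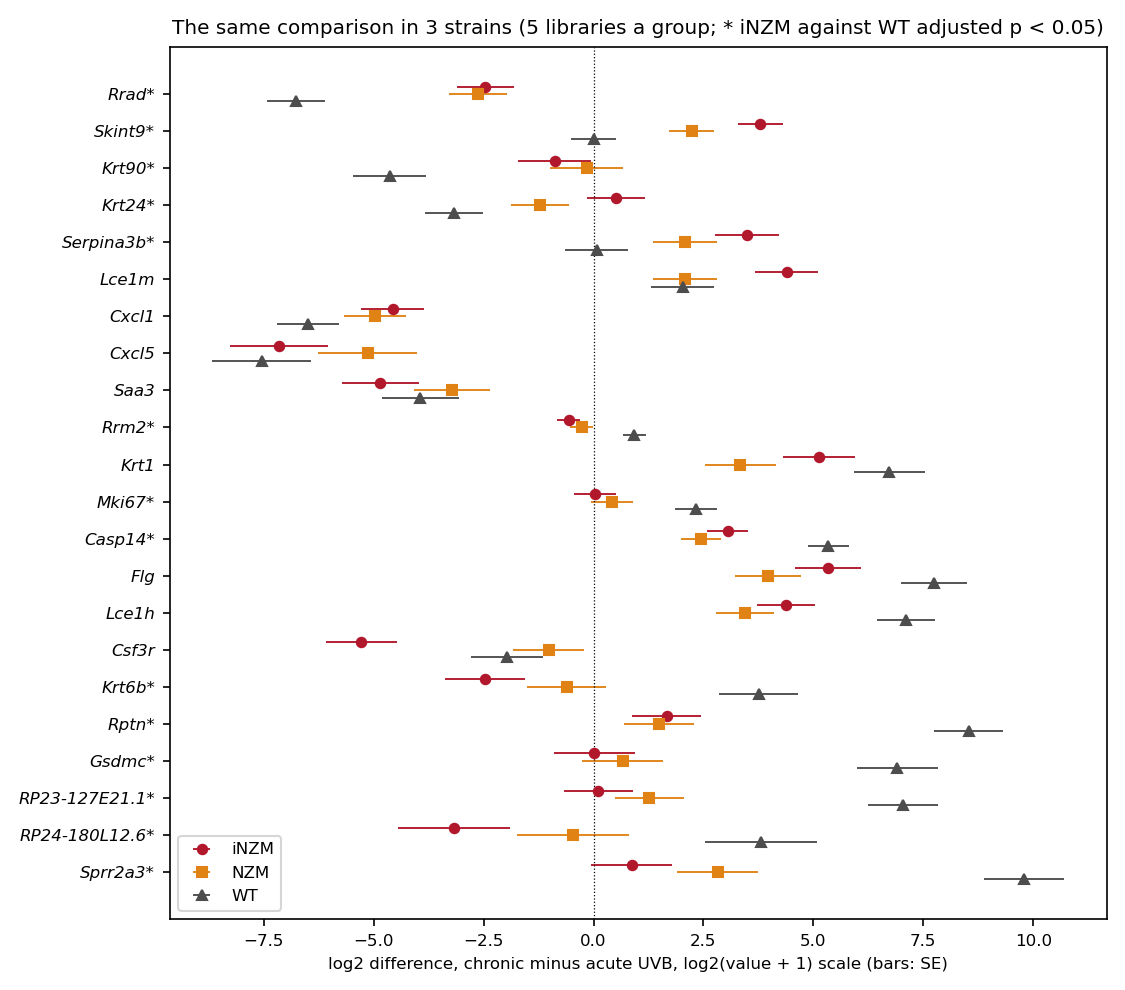
Log2 difference between chronic and acute UVB in iNZM (circles), NZM (squares) and WT (triangles), 5 libraries a group, for 22 genes; bars are SE, and an asterisk marks a limma adjusted p below 0.05 for iNZM against WT. Rptn lies at 1.66 in iNZM and 8.53 in WT, while Cxcl1 is negative in all 3 strains.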

How the data were processed

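RNA from 43 mouse back-skin samples in 9 groups (3 strains, each without UVB and after acute or chronic UVB) was sequenced as poly-A selected paired reads of 151 bases, per the labels' protocols. The submitters' processing notes name STAR, HTSeq, DESeq2 and the mouse build mm10; versions and annotation are not given in the sources used here. The deposited table holds 1 signal value per gene and library: read counts divided by a size factor. Each column's smallest step gave whole reads for 100.0% of values (within 0.01), so size factors and reads were recovered; summed recovered counts ran from 18.49 to 37.76 M a library (median 24.44 M).

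Of 23256 genes, 19170 that reached a value of 10 in 4 or more libraries were tested on the log2(value + 1) scale with limma 3.58.1 (R 4.3.3), with trended variance, in 1 fit of 9 group means, two-sided, with Benjamini-Hochberg adjustment over all tested genes and a threshold of 0.05. The fold scale understates changes of low genes. edgeR 4.0.16 (quasi-likelihood) and DESeq2 1.42.0 on recovered reads were alternatives, as were scaling, filters, pseudocounts, covariates and leaving out libraries. Scripts were tested on simulated data. Libraries of 1 group differed by far more than sampling noise (chi-square per gene 44.1 to 699.3). Groups came from the labels' strain and treatment.

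Genes named were up to 14 in each direction by largest difference among those called without overlap and with a mean of at least 100, up to 4 per list by smallest p, up to 5 in each direction that differed from another strain, and 20 fixed names. The members and lists were chosen with earlier results of these data known. Gene positions are from GENCODE vM21 (111 of 116 named genes matched), and promoters from RefSeq.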

Additional observations from a re-analysis of the deposited data

Results flagged for a closer look

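Some single libraries lay far from the other 4 of their group by Dixon's test at 0.71; of 232 gene and group pairs tested 13 did so, and chance alone flags about 1 in 20. In the chronic group, library 57 had 12200 normalised read counts of Insig1 (4500 to 5790 in the others), 7.42 of Plaur (27.1 to 43.5) and 5.94 of Timp1 (31.2 to 56.9). Chronic library 22 alone had reads of Mmp10 (5.81), Trem1 (3.48) and a clone-named model (18.6). Where the other 4 libraries have no reads, the test flags any value above 0, as for these genes and for Akr1d1 below. Chronic library 24 had 6.24 of Lyve1 (44.5 to 73.2), and library 25 had 4280 of the kinase gene Plk3 (1360 to 1670). In the acute group, library 6 had 10.6 of Il24 (151 to 377), 1.93 of Sprr2a3 (30.8 to 56.3) and the only reads of Akr1d1 (1.93). Acute library 10 had 1.68 of the chemokine gene Cxcl10 (11.1 to 14.5), and library 48 had 1190 of Fscn1 (2400 to 3020).

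Against WT, 5.91% of all genes passed limma's test at an adjusted p below 0.05. Of the 116 genes named, up to 5 in each direction were chosen because they passed it, which partly sets the next count. The difference between chronic and acute UVB itself differed between iNZM and WT for 19 named genes (limma, adjusted p below 0.05). It was more positive in iNZM for Rrad (4.30), Skint9 (3.79), Krt90 (3.76), Krt24 (3.68), Serpina3b (3.42) and Arg1 (1.37, adjusted p = 0.0349). It was more negative for the envelope and stress genes Sprr2a3 (-8.92), Rptn (-6.87), Krt6b (-6.23), Sprr2e (-4.62, adjusted p = 0.047) and Casp14 (-2.30), and for Gsdmc (-6.88). The lipid enzyme gene Sdr9c7 (-2.77, adjusted p = 5.64e-03) and the basal keratin Krt5 (-1.21, adjusted p = 0.0234) were also more negative. So were the cycling genes Mki67 (-2.29), Rrm2 (-1.51) and Mcm6 (-1.45, adjusted p = 0.023), and 2 clone-named models (-6.98 with adjusted p = 0.0149, and -6.93 with adjusted p = 1.94e-04). Exposed iNZM and WT libraries also differed in hair follicle score, as given above.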

How the results depend on the processing

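Of the 85 named genes called between chronic and acute UVB in iNZM, 0 changed sign under any alternative run; 14 passed the threshold when only the compared groups were fitted. The count of 1584 became 44 in that fit, 3220 with sample quality weights, 3082 with the hair score added as covariate, 4390 without libraries with a score above 3, 2520 with DESeq2 and 583 at a threshold of 0.01; leaving out 1 library gave 728 to 2317. Against WT the count of 1132 became 275, 4180 with the covariate, 3078 without those libraries, 1897 with DESeq2 and 408 at 0.01; leaving out 1 library gave 684 to 1638. The causes were not tested, except that the threshold and the smaller fits are stricter or hold fewer samples by construction. Against NZM the count was 0 in every alternative run.

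Genes that did not pass the test and changed sign were Krt24 (quality weights, -0.04), Krt5 (quantile normalization, -0.23), Cd3g (quality weights -0.31, without libraries with a high hair follicle score -0.70, edgeR and DESeq2 -0.26, leaving out 1 library -0.27 to 0.59) and Mki67 (quantile normalization -0.05, hair covariate -0.42, edgeR and DESeq2 -0.34, leaving out 1 library -0.33 to 0.44). Gsdmc gave -0.13 with sample numbers from 46 up as a covariate, -0.49 without libraries with a high score, -0.21 with edgeR and DESeq2, and -0.81 to 0.43 leaving out 1 library. A clone-named model gave -0.01 with the number covariate and -0.46 to 0.49. Cd207 gave 0.29 with the hair covariate and -0.62 to 0.11, and Trdc -0.54 to 0.10. No paired analysis was possible because the groups compared share no sample numbers. Depth limits genes such as Akr1d1, Fpr2 and Trem1, for which 1 group had nearly no reads.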

Other observations

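All 18 sebaceous gland genes had a positive difference between chronic and acute UVB in iNZM skin (0.13 to 1.98 on the log2 scale, median 0.87, against -0.001 over all genes), and limma called 1 higher and 0 lower (5.56%, against 3.81% of all genes). It was Acsbg1, an acyl-CoA synthetase gene chosen after its values were seen (1.58 ± 0.38, limma adjusted p = 6.78e-03). edgeR called 4 higher, DESeq2 7, limma 5 without the libraries with a high hair follicle score and 9 with that score as a covariate; leaving out chronic library 24, 25 or acute library 48 gave 4, 3 or 2, and fitting only the 10 libraries gave 0. The summed level of the list ran from 115000 to 918000 in the chronic and from 95500 to 311000 in the acute libraries.

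Of 18 circadian clock genes limma called 1 lower and 0 higher (5.56%, against 4.45% of all genes; median log2 difference 0.28). The gene called lower was Bhlhe40, a repressor in the clock, also chosen after its values were seen (-0.83 ± 0.17, limma adjusted p = 2.30e-03, and 0.151 with only the 10 libraries fitted). Without the libraries with a high hair follicle score 7 were higher, in a run that called 10.9% of all genes higher. With the score as a covariate 6 were higher. Without chronic library 24 or 25 or acute library 6 or 48 the count higher was 3, 2, 2 or 2. Of 8 B cell and plasma cell genes and 6 red blood cell genes limma called 0, with medians of -0.68 and -0.86; 4 B cell and plasma cell genes, 1 higher and 3 lower, had an unadjusted p below 0.05, and 0 red blood cell genes. edgeR and DESeq2 each called 1 B cell and plasma cell gene higher and 0 red blood cell genes.

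Genes of hair growth stood far above unexposed skin in part of both exposed groups. The summed level of the 36 hair genes ran from 1970 to 1810000 in the chronic, 1560 to 541000 in the acute and 2190 to 3050 in the unexposed libraries.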
